A study of Ovis aries with 13 samples.

Results

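The constitutive proteasome subunits were followed in the left ventricle of sheep before and just after birth. The proteasome is the large protease that degrades proteins tagged with ubiquitin. Its core is a stack of rings built from alpha subunits (genes PSMA) on the outside and beta subunits (PSMB) on the inside, where some beta subunits hold the cutting sites. A cap made of ATPases (PSMC) and non-ATPase subunits (PSMD) binds the tagged protein, unfolds it and feeds it into the core. In heart muscle this system removes damaged and surplus proteins, contractile ones included. Under interferon signalling, cells make 3 other beta subunits, PSMB8, PSMB9 and PSMB10, which replace constitutive ones in the immunoproteasome.

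Members were all probes whose gene name, or gene by RefSeq identifier, begins with PSMA, PSMB, PSMC or PSMD, apart from those 3 inducible subunits. This gave 5 probes of 3 genes among the 15008 probes of the array, of which 1632 carry a single gene name and together name 1014 genes. The genes were PSMA6 with 1 probe, PSMB7 with 2 and PSMD4 with 2. PSMC4, an ATPase of the cap, was also to be included, but no probe carries that name or a RefSeq identifier that leads to it. One probe named only TC379 is described by the array as similar to the human 26S protease regulatory subunit 6B, which is the product of PSMC4. It is reported beside the members as an unnamed probe and is not counted among them. A second unnamed probe, called EE809938 after an expressed sequence tag, lists the same accessions as the PSMB7 probes and is treated in the same way.

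RNA from 1 piece of left ventricle of each animal was hybridised to a 1-colour Agilent sheep array. There were 6 fetal animals at gestational day 142, of which 2 were female and 4 male. The 7 newborn animals were at postnatal day 1, the day of birth, and 4 were female and 3 male. The labels name no treatment, strain or genetic change in either group. For 9 of the animals the labels give a number that another animal of the same group carries with a different letter, and they do not explain it. Each array is taken as 1 animal, and p-values measure the spread between these animals.

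Levels are given as the log2 signal relative to the 75th percentile of the array, so that 0 is the signal of that percentile. The 75th percentile lay between 219 and 367, and 62.7% to 71.4% of probes were well above background on each array. Of the 7 newborn arrays, 6 lay between 10.1 and 35.1 on the first principal component (36.8% of the variance), the fetal arrays lay between -29.1 and -20.4, and newborn 6 lay between them at -8.997. Results are therefore also given without newborn 6. The arrays lay on 2 slides, which held 4 fetal and 3 newborn arrays, and 2 fetal and 4 newborn arrays. In a piece of tissue, fewer cells of a type and less RNA per cell cannot be told apart.

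The probe sequences are shown because near-identical probes let the same transcript be measured more than once. They are 5′ to 3′ as the deposited files give them, and each is 60 bases long. The files mark all of them as unmapped, so no genome position is given. In the PSMB7 probes the capitals mark 2 bases, each inside a run of A, that have no partner in the unnamed EE809938 probe. Which A of the run is left over is arbitrary. In the PSMD4 probes the capitals mark the end that the other probe of the pair does not cover.
PSMA6, A_70_P059396: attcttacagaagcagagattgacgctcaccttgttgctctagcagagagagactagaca
PSMB7, A_70_P003511: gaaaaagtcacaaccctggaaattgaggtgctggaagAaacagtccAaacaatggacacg
PSMB7, A_70_P003512: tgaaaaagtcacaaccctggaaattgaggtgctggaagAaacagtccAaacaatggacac
EE809938, A_70_P036141: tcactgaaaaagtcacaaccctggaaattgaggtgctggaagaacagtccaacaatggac
PSMD4, A_70_P051396: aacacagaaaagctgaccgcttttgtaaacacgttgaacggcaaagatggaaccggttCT
PSMD4, A_70_P051397: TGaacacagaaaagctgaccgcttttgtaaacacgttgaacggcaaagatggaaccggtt
TC379, A_70_P027451: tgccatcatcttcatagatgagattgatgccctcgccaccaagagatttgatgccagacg

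The PSMB7 probes were shifted by 1 base and shared 59 bases. Against EE809938 they aligned over 55 and 56 bases with 0 mismatches and the 2 unpaired bases. The PSMD4 probes were shifted by 2 bases and shared 58. No other probe on the array shared a stretch of 20 bases with any of the 7, on either strand. The GC content of the 7 probes lay between 43.3% and 48.3%. The paired probes of a gene thus read nearly the same stretch of the same RNA and are not independent measurements of the gene.

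The comparison of newborn with fetal ventricle asks which transcripts differ across birth. Among the core subunits, 1 of the 2 PSMB7 probes was higher in newborn hearts by 0.30 on the log2 scale, or 1.23-fold. The PSMA6 probe was 1.21-fold higher and the second PSMB7 probe 1.13-fold higher, and neither passed the test. The probes of PSMD4, in the cap, differed by 0.995-fold and 0.920-fold. The unnamed TC379 probe, described as similar to an ATPase of the cap, was 1.43-fold higher in newborns and passed.

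In the limma fit with Benjamini-Hochberg adjustment over 10257 tested probes, 1 of the 5 member probes passed an adjusted p of 0.05, beside 23.1% of all tested probes. In the direction of a rise it was 1 of 5 beside 12.0%, and in that of a fall 0 of 5 beside 11.1%. At an unadjusted p under 0.05 it was 2 of 5. The median change of the 5 probes was 0.17, against 0.03 over all tested probes, and their median absolute change was 0.17 against 0.24. A count of 1 among 5 is near the background and says nothing particular about these genes. All 5 probes were well above background and below saturation on all 13 arrays, so none entered the test through 1 group alone.

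PSMA6 encodes an alpha subunit of the outer ring of the core. Its level was 4.74 on the lowest fetal array, 5.01 at the fetal median and 5.16 on the highest. The newborn arrays ran from 5.05 through a median of 5.22 to 5.52. The groups overlapped: 4 of the 7 newborn arrays lay above every fetal array, and newborn 1, newborn 2 and newborn 6, at 5.05, 5.15 and 5.06, lay within the fetal range. The means were 4.98 ± 0.156 (SD, n = 6) and 5.25 ± 0.179 (SD, n = 7). The change was 0.27 (SE 0.105, 95% interval 0.05 to 0.50), and the adjusted p of limma was 0.0735. The exact permutation test of this single probe, two-sided over 1716 splits, gave an unadjusted p = 0.0163. Without newborn 6 the change was 0.31 with an adjusted p of 0.0425 in limma, so its side of the threshold turned with 1 array. It also passed in the series matrix, at 0.20 (adjusted p = 0.0437 in limma).

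PSMB7 encodes the beta subunit that carries the trypsin-like site of the constitutive core. On the probe A_70_P003511 the fetal arrays ran from 4.73 through a median of 4.97 to 5.04. The newborn arrays ran from 5.05 through a median of 5.22 to 5.36. All 7 newborn arrays lay above all 6 fetal arrays, as 3.38% of tested probes did. No member lay wholly below the fetal range in newborns, as 3.51% of tested probes did. The margin was small, since fetal 4 at 5.042 and newborn 6 at 5.048 nearly met. The means were 4.92 ± 0.138 (SD, n = 6) and 5.22 ± 0.116 (SD, n = 7). The change was 0.30 (SE 0.0906), or 1.23-fold with a 95% interval of 1.08 to 1.41, at an adjusted p of 0.0291 in limma. The exact permutation p was 0.0017.

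This call lay near the threshold. Leaving out an array also lowers the number of animals, and the change itself moved little. It was lost on leaving out fetal 2, fetal 3, newborn 2, newborn 4, newborn 5 or newborn 7, with changes of 0.26 to 0.30 and adjusted p of 0.0511 to 0.0689 in limma. Without newborn 6 the change was 0.33 at an adjusted p of 0.0150. With the animal number, which the labels give to several animals of a group, as a random block, the change was 0.29 and the adjusted p of 0.0579 in limma no longer passed.

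The second PSMB7 probe, A_70_P003512, did not pass. Its fetal arrays ran from 4.61 through a median of 4.90 to 5.03, and its newborn arrays from 4.52 through a median of 5.14 to 5.19. Newborn 6 held that lowest value, and the next newborn array was at 4.93. Without it, 5 of the 6 remaining newborn arrays lay above every fetal array. The means were 4.86 ± 0.170 (SD, n = 6) and 5.03 ± 0.239 (SD, n = 7), and the change was 0.17 (SE 0.122, 95% interval -0.09 to 0.43, adjusted p = 0.316 in limma). Without newborn 6 it was 0.26 at an adjusted p of 0.0576, still not past the threshold.

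The 2 PSMB7 probes parted most on newborn 6. Over the 13 arrays A_70_P003511 was higher by a mean of 0.128 ± 0.133 (SD). The difference reached 0.523 on newborn 6 and was at most 0.200 on any other array. Their changes from fetal to newborn differed by 0.13, and by 0.07 without newborn 6. The unnamed EE809938 probe, which covers nearly the same stretch, followed A_70_P003511 more closely, with differences of SD 0.061. Its means were 4.53 ± 0.126 (SD, n = 6) and 4.83 ± 0.125 (SD, n = 7), a change of 0.30 (SE 0.0901, adjusted p = 0.0290 in limma), with 6 of 7 newborn arrays above every fetal array. Newborn 6, at 4.61, was its 1 newborn array inside the fetal range. The mean of the 2 named PSMB7 probes changed by 0.24 at an adjusted p of 0.110.

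The signals of PSMA6 and PSMB7 were among the strongest on the array: 96.5% and 96.4% of tested probes were dimmer. The 1026 brightest of the tested probes had a median change of 0.13, against 0.03 for all tested probes. Under quantile normalization, which gives all arrays the same distribution, the median of those 1026 was 0.03. PSMB7 (A_70_P003511) then changed by 0.19 at an adjusted p of 0.0861 and PSMA6 by 0.15, so both values kept their direction and were smaller. In the series matrix the array medians lay between 8.694 and 8.702, and the median change of those 1026 was 0.02. There the PSMB7 probe changed by 0.18 and passed. The part of signal strength in these changes was not tested.

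PSMD4 encodes a subunit of the cap that binds ubiquitin chains. On the probe A_70_P051396, printed at 5 spots of each array, the fetal arrays ran from 0.53 through a median of 0.71 to 1.06. The newborn arrays ran from 0.66 through a median of 0.78 to 0.90, wholly inside the fetal range. The means were 0.767 ± 0.212 (SD, n = 6) and 0.760 ± 0.103 (SD, n = 7). The change was -0.007 (SE 0.103), with an adjusted p of 0.967 in limma. The 95% interval ran from 0.855-fold to 1.16-fold. The 1.23-fold of the PSMB7 probe A_70_P003511 lay outside it and the 1.13-fold of A_70_P003512 inside, which is no test of a difference between the genes. The spots of this probe within an array had a median SD of 0.0531, smaller than the spread between fetal animals.

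The second PSMD4 probe, A_70_P051397, ran from 0.68 through a median of 0.84 to 1.21 in fetal hearts. In newborn hearts it ran from 0.28 through a median of 0.87 to 0.97. Newborn 4 held the lowest value, and on that array the 2 PSMD4 probes differed by 0.379, the largest gap between them. The means were 0.870 ± 0.206 (SD, n = 6) and 0.750 ± 0.255 (SD, n = 7). The change was -0.12 (SE 0.131, 95% interval -0.40 to 0.16, adjusted p = 0.529 in limma). Without newborn 4 it was -0.04, and without newborn 6 it was -0.15. The direction of the first PSMD4 probe turned with several settings, and no direction is given for this gene.

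The TC379 probe, which the array describes as similar to the PSMC4 product, separated the groups most widely of the 7. Its fetal arrays ran from 1.16 through a median of 1.33 to 1.40, and its newborn arrays from 1.53 through a median of 1.87 to 1.97. All 7 newborn arrays lay above all fetal arrays, as on 3.38% of tested probes, with a gap between the groups. The means were 1.31 ± 0.0842 (SD, n = 6) and 1.83 ± 0.153 (SD, n = 7). The change was 0.51 (SE 0.0904), or 1.43-fold with a 95% interval of 1.25 to 1.63, at an adjusted p of 0.00202 in limma. The exact permutation p of 0.0012 is the smallest that 1716 splits can give. The call held on leaving out each array in turn, with changes of 0.48 to 0.56, and newborn 6 lay inside the newborn range at 1.90.

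**Figure D1:**
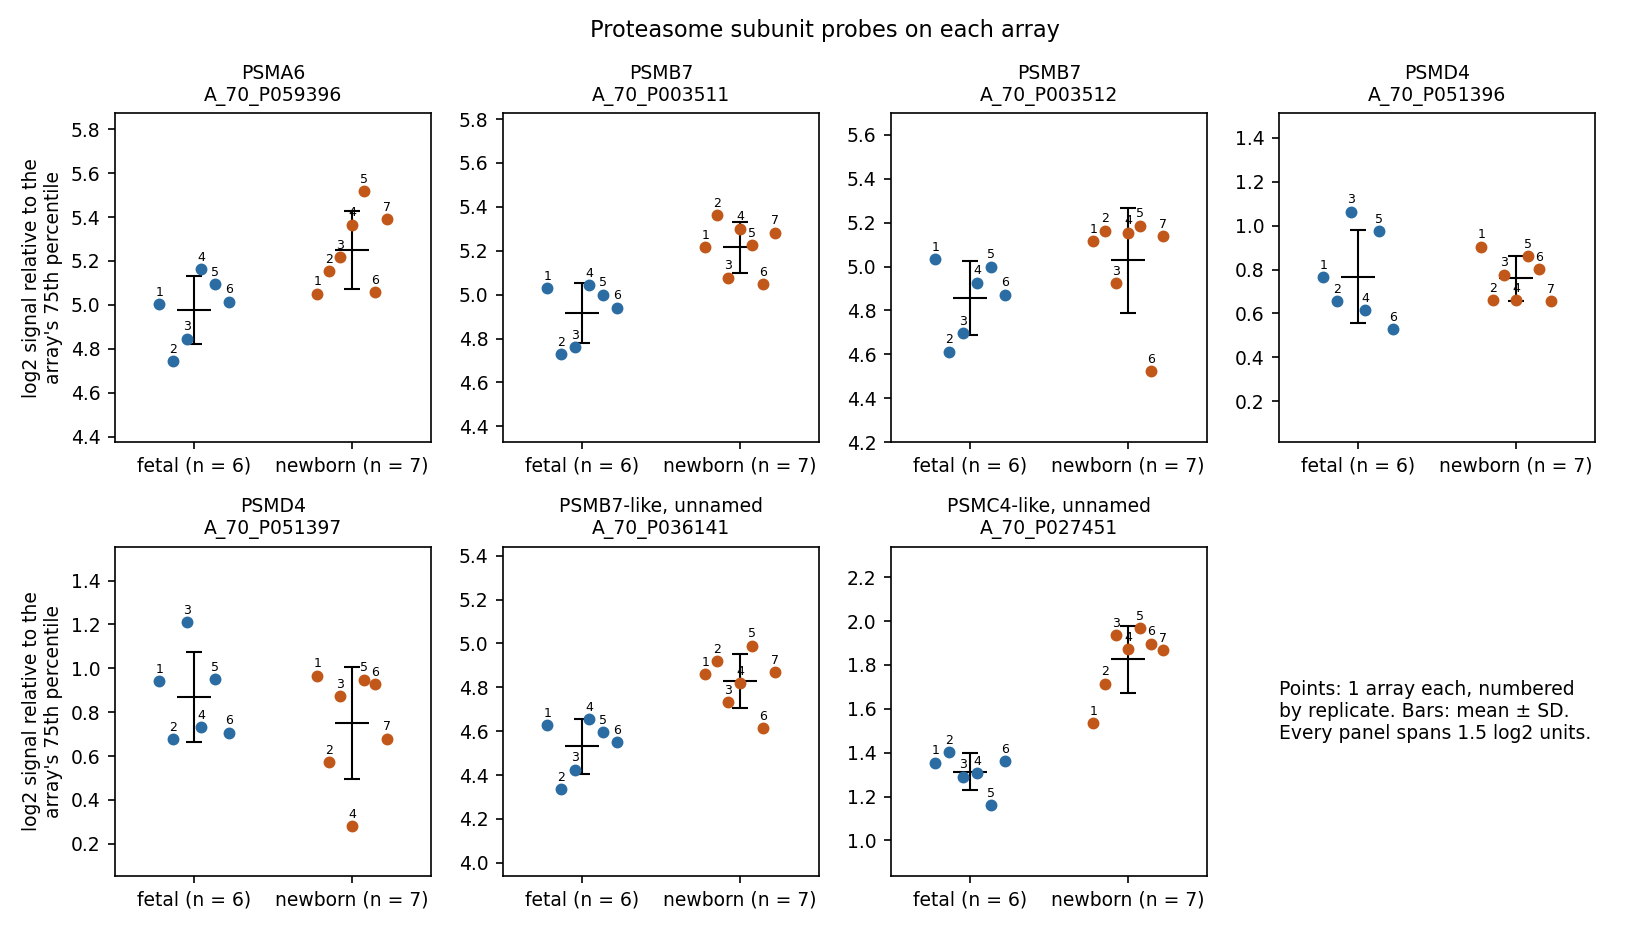
Log2 signal relative to the 75th percentile of the array (vertical axis) for the 5 member probes and the 2 unnamed probes, 1 point for each array numbered by replicate, with mean ± SD of 6 fetal and 7 newborn arrays. Newborn 6 sits at 4.52 on the second PSMB7 probe, below all fetal arrays, while on the TC379 probe (PSMC4-like) every newborn array is above every fetal array.

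Within each slide the PSMB7 probe A_70_P003511 was higher in newborns by 0.33 on slide 1 and by 0.24 on slide 2, and on both slides every newborn array lay above every fetal array. PSMA6 was higher by 0.20 and 0.28, and A_70_P003512 by 0.25 and 0.06. TC379 was higher by 0.39 and 0.64. The PSMD4 probes differed by 0.006 and -0.006, and by -0.09 and -0.12. A single slide has at most 4 arrays of a group, and neither PSMB7 nor TC379 passed within 1 slide.

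Sex was tested with age in the model, where 1 of 10257 probes passed (0.00975%) and 331 had an unadjusted p under 0.05. None of the 5 member probes passed (adjusted p = 0.999 for each in limma), and none had an unadjusted p under 0.05. The difference of males from females lay between -0.08 and 0.16. The change from fetal to newborn was 0.42 in females and 0.21 in males for A_70_P003511, and 0.45 and 0.12 for PSMA6. On A_70_P003512 it was 0.41 in females and -0.04 in males, where newborn 6 is 1 of the 3 newborn males. The product of age and sex passed for 0 of 10257 probes (0%; 507 at an unadjusted p under 0.05 in limma) and for none of the members, whose smallest adjusted p was 0.977. Only 2 fetal females were measured, so these values have little precision.

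The other genes of protein breakdown were taken from 6 lists. The list of 24 assembly factors and regulators of the proteasome had no gene named on the array. Across the remaining 5 lists 22 genes were tested, of which 5 rose and 2 fell, beside 13.4% and 9.58% of the 647 named genes with a tested probe, or 23.0% in either direction. Their median change was 0.09, as was that of all named genes. Each gene is represented by its brightest probe.

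Of the 13 genes of the immunoproteasome, its activator and antigen processing, 2 were tested and both rose. PSMB8 encodes the inducible subunit that takes the place of the constitutive chymotrypsin-like one. Its level went from -1.12 ± 0.239 (SD, n = 6) to 0.25 ± 0.547 (SD, n = 7), a change of 1.37 (SE 0.220), or 2.59-fold, at an adjusted p of 0.00134 in limma. In the series matrix the change of PSMB8 was smaller, at 0.86 (adjusted p = 0.00644 in limma). PSME2, a subunit of the PA28 activator that caps the core in place of the ATPase cap, went from 4.34 ± 0.210 (SD, n = 6) to 5.05 ± 0.310 (SD, n = 7). It changed by 0.71 (SE 0.146), or 1.64-fold, at an adjusted p of 0.00430 in limma, and its second probe by 0.74. On both genes all 7 newborn arrays lay above every fetal array, as on 3.38% of all tested probes.

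Of the 44 ubiquitin and ubiquitin-like genes, E1 and E2 enzymes, 6 were tested, 2 rose and none fell. ISG15, an interferon-induced protein that is joined to targets as ubiquitin is, changed by 2.83 (SE 0.617, adjusted p = 0.00586 in limma). UBE2D2, an E2 enzyme that passes ubiquitin to many ligases, changed by 0.36 (SE 0.0917, adjusted p = 0.0122) on 1 probe and by 0.44 on the other. Every newborn array of ISG15 and UBE2D2 lay above every fetal array, as on 3.38% of all tested probes. The other 4 tested genes of this list did not pass.

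Among 55 ubiquitin ligases and adaptors, 2 were tested and 1 fell. SKP1, which links F-box proteins to their ligase, changed by -0.34 (SE 0.115, adjusted p = 0.0467 in limma), and this call was lost on leaving out any 1 of 10 arrays (all but fetal 3, newborn 1 and newborn 6), at adjusted p of up to 0.0948. It was also lost with slide as a block (0.0583), sex in the model (0.0622), the animal number as a random block (0.0764) and no filter on dim probes (0.0825). A block by replicate number lost it too (0.0663). FBXO32, the muscle F-box protein also called atrogin-1, changed by -1.21 (SE 0.437, adjusted p = 0.0586). Without newborn 6 it changed by -1.59 at an adjusted p of 0.000958. Of 32 deubiquitinases and shuttles, 2 were tested and none passed: SQSTM1, a receptor that carries ubiquitinated cargo to autophagy, at -0.30 (adjusted p = 0.0831, and 0.0370 without newborn 6), and the shuttle UBQLN1 at -0.07 (adjusted p = 0.734).

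Of 27 lysosomal and calcium-activated proteases, 10 were tested, 1 rose and 1 fell. CAPN2, the large subunit of a calcium-activated calpain, changed by 0.34 (SE 0.0962, adjusted p = 0.0222 in limma), and without fetal 5 its adjusted p was 0.0548. CTSF, a lysosomal cathepsin, changed by -0.86 (SE 0.233, adjusted p = 0.0172). The other 8 genes did not pass on their brightest probe. One of them, CAST, the inhibitor of calpains, was not past the threshold on its brightest probe (-0.36, adjusted p = 0.0766) but passed on its second (-0.56, adjusted p = 0.0110), and is named after its values were seen.

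**Figure D2:**
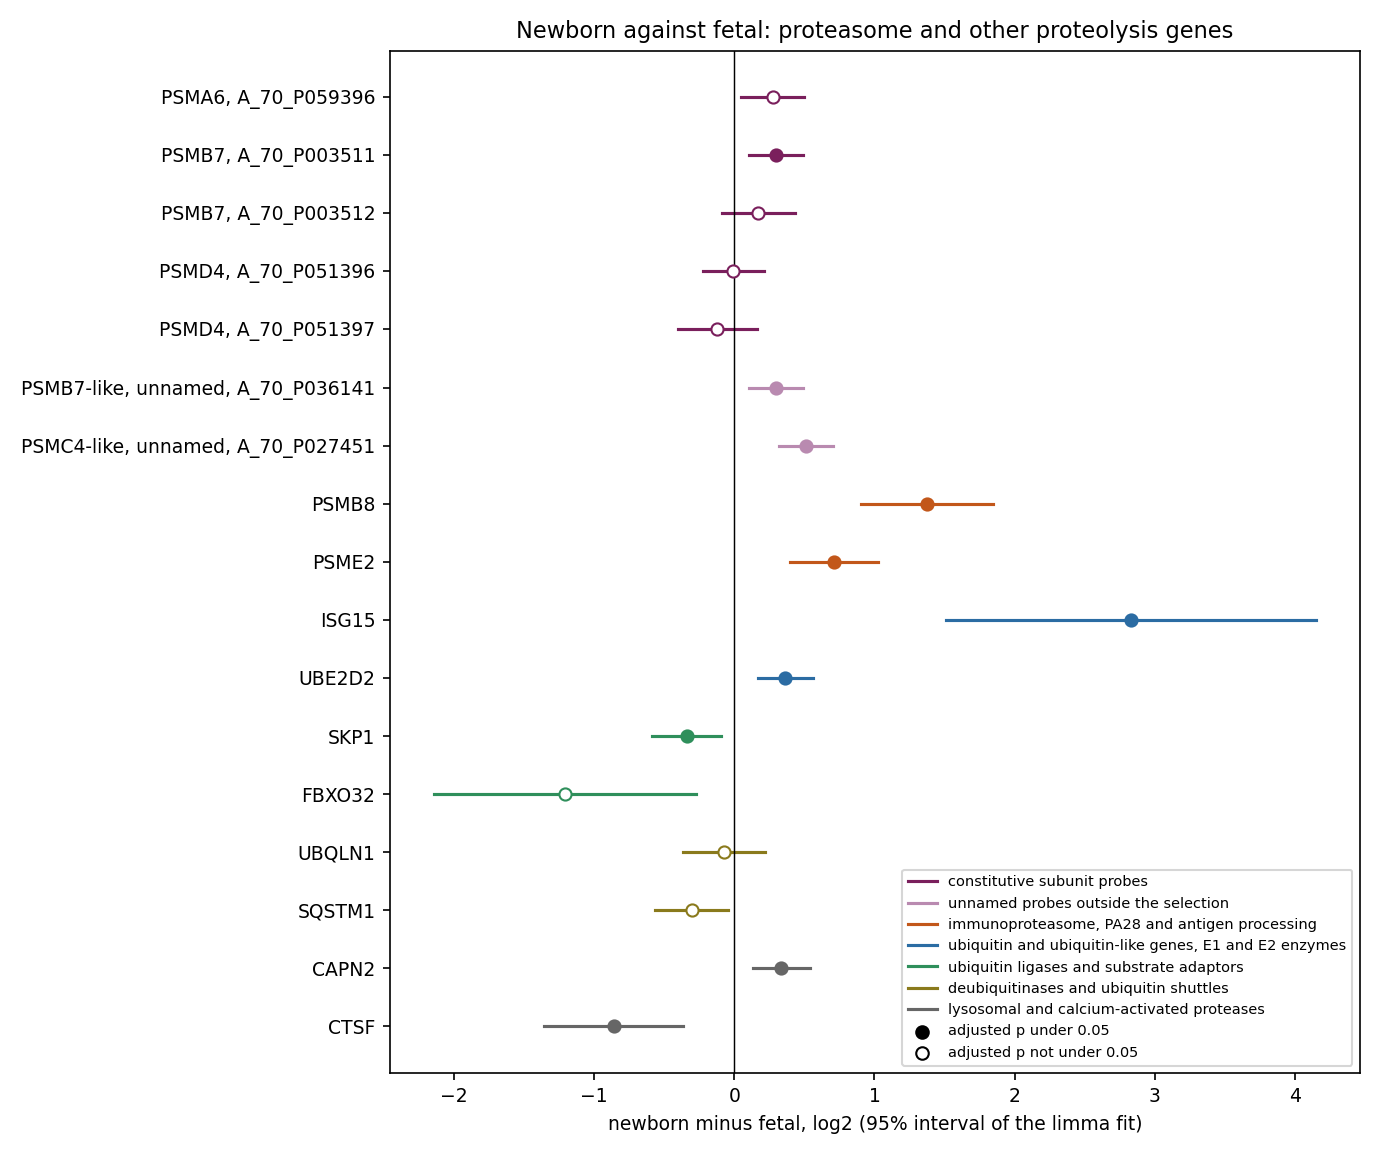
Newborn minus fetal change on the log2 scale (horizontal axis) with the 95% interval of the limma fit, for the member probes, the 2 unnamed probes and, of 5 lists, the genes that passed and the 2 with the smallest p, 6 fetal against 7 newborn arrays. Filled points passed an adjusted p of 0.05; the change of PSMB7 (0.30) lies far to the left of those of PSMB8 (1.37) and ISG15 (2.83).

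Whether the constitutive subunits changed by as much as the inducible ones was tested directly, as the difference of 2 genes within each array, compared between groups by an exact permutation test. All 15 pairs of PSMA6, PSMB7, PSMD4, TC379, PSMB8 and PSME2 were tested, each gene by its brightest probe, with Benjamini-Hochberg adjustment over the 15. The pairs were chosen after their values were seen, and the p-values do not allow for that choice.

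PSMB7 minus PSMB8 changed by -1.07 (exact p = 0.0012, the smallest possible; adjusted 0.00874), and on all 7 newborn arrays it was below every fetal array. PSMA6 minus PSMB8 changed by -1.10 (exact, adjusted 0.00874). PSMB7 minus PSME2 changed by -0.41 (exact, adjusted 0.00874), and PSMA6 minus PSME2 by -0.44 (exact, adjusted 0.0117). In these pairs the changes measured for the 2 core subunits were smaller than those of PSMB8 and PSME2. As the pairs were picked with these changes known, the small p-values are a description and not an independent test. The same was not seen for TC379 throughout: TC379 minus PSMB8 changed by -0.86 (exact, adjusted 0.00874), but TC379 minus PSME2 by -0.20 (exact p = 0.260, adjusted 0.278). Without newborn 6 the change of PSMB7 minus PSMB8 was -1.19 and that of PSMB7 minus PSME2 was -0.43.

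Among the members and TC379, PSMB7 minus PSMD4 changed by 0.42 (exact p = 0.0315, adjusted 0.0472), with 3 of 7 newborn arrays above every fetal array. This value depended on the probes. Over the 4 pairs of a PSMB7 and a PSMD4 probe it lay between 0.18 and 0.42. The unadjusted exact p was under 0.05 for both pairs with A_70_P003511 (0.0385 and 0.0315) and for neither with A_70_P003512 (0.270 and 0.163). Without newborn 6 these exact p were 0.0368 and 0.0173, and 0.0541 and 0.0281. Without newborn 4 they were 0.0758 and 0.0498, and 0.398 and 0.299. PSMA6 minus PSMD4 changed by 0.39 (exact p = 0.0455, adjusted 0.0568). PSMD4 minus TC379 changed by -0.63 (exact p = 0.0029, adjusted 0.00874). On its brightest probe, A_70_P051397, the measured change of PSMD4 was thus lower than that of TC379. The probe A_70_P051396 was not paired with TC379. These pairs too were chosen after their values were seen, so their p-values are a description. The exact p for the difference from PSMB7 turned with the probe and with single arrays. That for the difference from PSMA6 was not under 0.05 after adjustment. PSMA6 minus PSMB7 changed by -0.03 (exact p = 0.758), and PSMB7 minus TC379 by -0.21 (exact p = 0.0903, adjusted 0.104), differences that this number of arrays could not tell from 0.

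**Figure D3:**
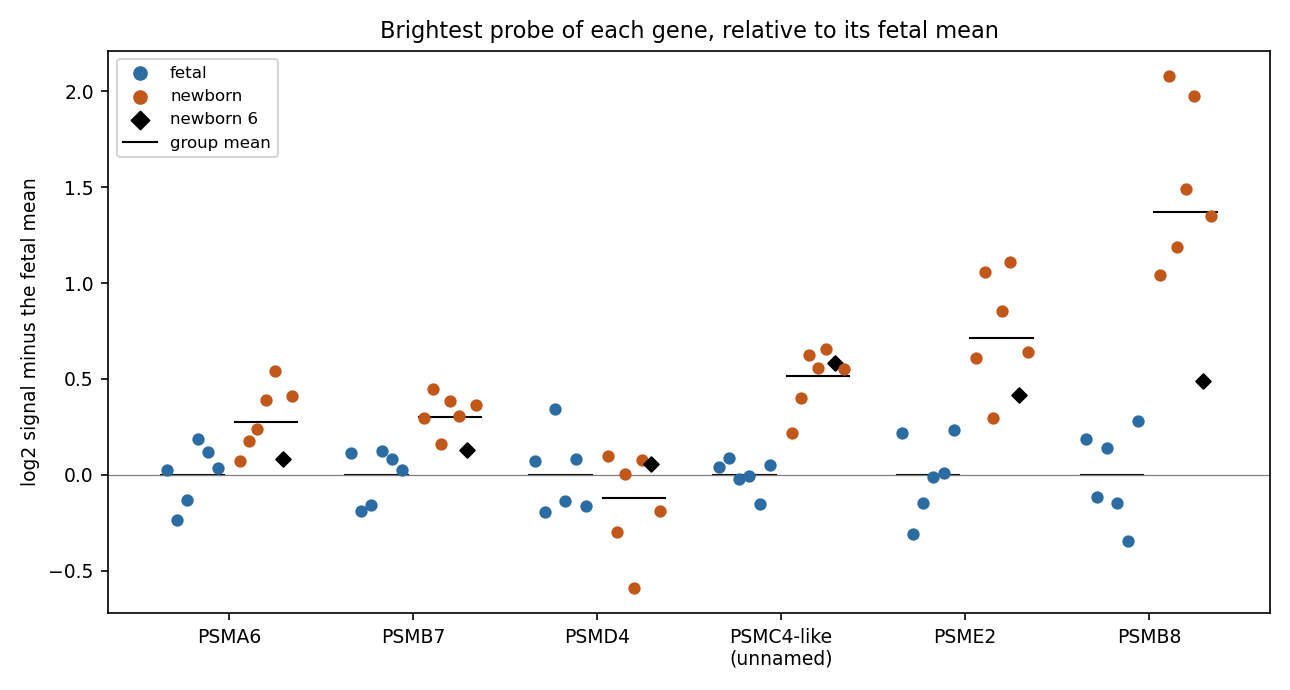
Log2 signal of the brightest probe of each gene minus its fetal mean (vertical axis), 1 point for each of 6 fetal and 7 newborn arrays, with bars at the group means. PSMB8 has a newborn mean of 1.37, PSMB7 of 0.30 and PSMD4 of -0.12; newborn 6, drawn as a diamond, is low on PSMB8 but not on the TC379 probe (PSMC4-like).

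Likeness to each subunit was measured as Pearson's r over the 13 arrays between brightest probes, for 627 named genes. The arrays fall into 2 groups, so r with the group means removed is given as the second value in parentheses, and both are descriptions with no test. PSMA6 was most like LDHA, the lactate dehydrogenase subunit of muscle type (0.89, and 0.83), followed by HACD1 (0.89, and 0.80), CHCHD3 (0.86, and 0.74), SLC25A26 (0.86, and 0.75) and UBE2D2 (0.86, and 0.74). PSMB7 was most like PSME2 (0.91, and 0.75), followed by HACD1 (0.89, and 0.74), PDXK (0.86, and 0.57), LOC100037668 (0.86, and 0.76) and MYL6 (0.85, and 0.54). The PSMB7 values hold for A_70_P003511, and none is given for A_70_P003512. HACD1 was thus near both core subunits. PSMA6 and PSMB7 had r = 0.81 with each other, and 0.62 with group means removed.

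On its brightest probe, A_70_P051397, PSMD4 had negative r with the core subunits, to PSMB7 (-0.47, and -0.43) and, weaker, to PSMA6 (-0.34, and -0.22). It was most like CCN1, a secreted matrix protein (0.80, and 0.82), followed by CYTH2 (0.76, and 0.81), PTGER3 (0.64, and 0.61), RPS12 (0.59, and 0.55) and PDGFB (0.59, and 0.55). On A_70_P051397 newborn 4 was at 0.28, against 0.66 on A_70_P051396. No r is given for A_70_P051396, so these values hold for 1 PSMD4 probe. TC379 was most like CD14, a monocyte surface receptor (0.89, and 0.80), followed by PSPH (0.89, and 0.29), SLC25A20 (0.88, and 0.01), INHA (0.88, and 0.16) and MTHFD2 (0.87, and 0.49). Of these 5 genes, CD14 alone kept a value over 0.5 with group means removed. The r of these levels with the log2 75th percentile of the array was -0.61 for PSMB7, -0.51 for PSME2, -0.47 for PSMA6 and 0.31 for PSMD4. Each level has that percentile subtracted, so a negative r can arise from the subtraction alone.

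Markers of the cell types of a ventricle piece moved too, and their part in the results was not tested. The only cardiomyocyte marker tested was MB, with levels of 426 to 589 times the 75th percentile in fetal and 260 to 555 in newborn hearts, and it did not pass. Of 5 leukocyte markers 3 rose and 2 fell, with summed levels of 0.958 to 1.61 in fetal and 1.17 to 2.27 in newborn hearts. Both erythroid markers fell (53.7 to 258 against 25.4 to 68.6), 2 of 4 endothelial markers fell (5.83 to 7.60 against 4.36 to 6.87) and 1 of 4 fibroblast markers fell (129 to 155 against 123 to 176). The smooth muscle marker CNN1 rose (3.63 to 7.17 against 9.81 to 84.0), and 1 of 2 skeletal muscle markers rose (0.681 to 14.4 against 0.883 to 39.4). Among the 647 named genes with a tested probe, 13.4% rose and 9.58% fell. Each range is the sum over all tested markers of the list, whether or not they passed. In the fibroblast and skeletal muscle lists, brighter markers that did not pass made up most of the sum. In each of these lists the 1 marker that passed did so on its brightest probe, and no other probe of it passed.

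**Figure D4:**
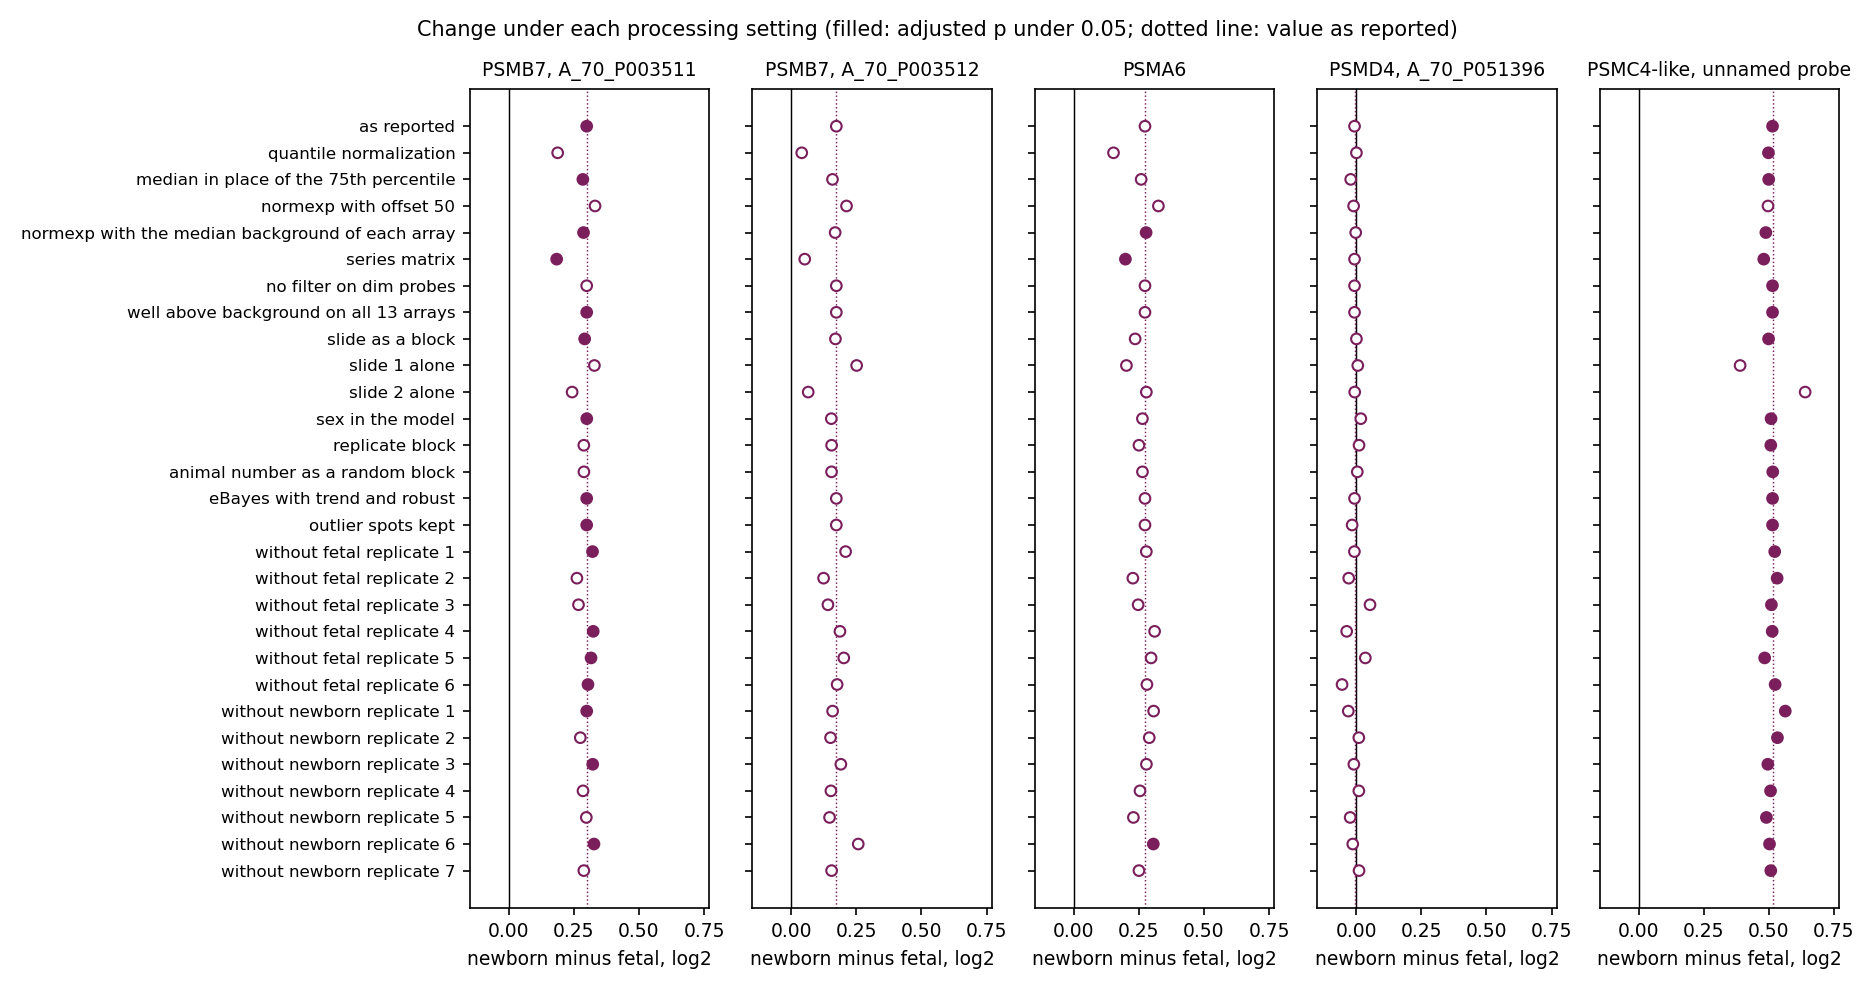
Newborn minus fetal change on the log2 scale (horizontal axes) of 5 probes under each processing setting and with each array left out (rows); filled points passed an adjusted p of 0.05 in limma. TC379 (PSMC4-like) keeps changes between 0.39 and 0.64, while the PSMB7 probe A_70_P003511 lies between 0.18 and 0.33 and passes in some settings only.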

How the data were processed

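Left ventricle RNA of 6 fetal and 7 newborn sheep was measured on 13 Agilent arrays. Per the file headers, the deposited spot intensity values came from Agilent Feature Extraction, with background subtracted and the signal detrended within each array. The labels' protocol names Cy3, the label field Cy5; the files hold 1 green channel. The series matrix of 7041 probes was deposited by the authors as what its values show to be log2 signals, with no statement of how they were scaled or normalized, and served as an alternative.

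Each array's log2 processed signal was taken relative to its own 75th percentile, without control and outlier spots, averaging the spots of a probe. Probes well above background on at least 6 arrays (10257) were compared two-sided in R 4.3.3 with limma 3.58.1, at a threshold of 0.05 after Benjamini-Hochberg adjustment. Genes were named from the files and, through RefSeq identifiers, from the RefSeq gene table; 14 probes with several names and 10 with conflicting ones stayed unnamed. Only the 5 member probes, 2 unnamed probes and listed genes are named, the latter if they passed or had 1 of the 2 smallest p of their list, and the 5 genes most like each subunit; PSMB9 and PSMB10 are named beside these. Members and lists were chosen with earlier results of these data known. The steps were tested on simulated data. Sequences were compared with biopython 1.88, and figures drawn with matplotlib 3.10.9. The number of arrays limits the precision.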

Additional observations from a re-analysis of the deposited data

Results flagged for a closer look

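On the PSMB7 probe A_70_P003512, newborn 6 had a level of 4.52, against 4.93 on the nearest newborn array. The gap was 0.606 of the range of the 7 newborn arrays, above the critical share of 0.568. On the 59 bases that A_70_P003511 shares with this probe, newborn 6 read 5.05. Of 18 groups of arrays looked at in this way 1 stood out, and chance gives about 1 in 20.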

How the results depend on the processing

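The PSMB7 probe A_70_P003511 (0.30 as reported) kept its direction in every setting tried, but lost its call with quantile normalization (0.19), with normexp on the background of each spot (0.33), with no filter on dim probes (0.30), on slide 1 (0.33) or slide 2 (0.24) alone, with a replicate block (0.29) and with the animal number as a random block (0.29). With 1 array left out it ranged from 0.26 to 0.33. TC379 (0.51) lost its call with that normexp setting (0.50) and on slide 1 (0.39) or slide 2 (0.64) alone. The 1 member probe that passed became 0 in each setting named for PSMB7 and 2 with the series matrix, where PSMA6 passed too (0.20). With 1 array left out the count was 0 to 2. The 2366 probes passing overall became 48 with normexp, 352 on slide 1, 23 on slide 2, 1326 with the replicate block, and 1726 to 3116 with 1 array left out. In the normexp setting the highest local background of a spot was 24495 on fetal 6 and 15376 on newborn 1, and their median levels were -0.21 and -0.19, against -0.74 to -0.63 on the other arrays. With the median background of each array instead, chosen after seeing the data, 2011 probes passed and 2 members did, PSMB7 at 0.29 and PSMA6 at 0.28. Fetal and newborn arrays of the same replicate number did not deviate together (r -0.07 to 0.05, and 1 of 6 was most like its own number). This shows no pairing by replicate number but cannot exclude one. It does not bear on the animal numbers shared within a group. The PSMD4 probe A_70_P051396 (-0.007) changed sign with quantile normalization (0.00035), slide as a block (0.00034), slide 1 (0.0055), sex (0.017), the replicate block (0.010), the animal block (0.0037), and from -0.055 to 0.053 with 1 array left out. UBQLN1 (-0.07) did so with slide as a block (0.012) and on slide 1 (0.14). In the series matrix PSMB8 (1.37) changed by 0.86, ISG15 (2.83) by 2.31 and CTSF (-0.86) by -0.41, and each still passed. With normexp on the background of each spot PSMB8 changed by 0.90 and lost its call. With the median background of each array it changed by 1.01. With the replicate block UBE2D2, CTSF and CAPN2 lost their calls (adjusted p of 0.0744, 0.0652 and 0.0719 in limma). They also lost them with normexp on the background of each spot and on each slide alone. Where no cause is named it was not tested. Slides alone have fewer arrays.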
